A study of Homo sapiens with 6 samples.

Results

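The expression of 10 genes encoding enzymes that modify and crosslink collagen was examined in BT549 cells, an established basal-like breast cancer line, after treatment with AS1842856. The genes were taken by symbol from the 58735 genes of the count table and are LOX, LOXL1, LOXL2, LOXL3 and LOXL4 (lysyl oxidases), P4HA1, P4HA2 and P4HA3 (catalytic alpha subunits of collagen prolyl 4-hydroxylase), and PLOD1 and PLOD2 (lysyl hydroxylases). AS1842856 is a compound used to inhibit FOXO1, a forkhead transcription factor. The paper proposes that it modulates FOXO1 and does not only inhibit it. There, FOXO1 RNAi lowered LEF1 in BT549 cells, while the compound raised it. RNA-Seq was available for 3 libraries from cells given DMSO, the solvent control, and 3 from cells given AS1842856 for 48 h, with replicates named A, B and C in each group. The dose is 200 nM in the sample labels and 1 μM in the text of the methods, and it was not resolved here. All 6 libraries came from 1 cell line and 1 time point.

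Collagen chains are modified while they are folded in the endoplasmic reticulum. Prolyl 4-hydroxylases make the hydroxyproline that keeps the collagen helix stable, and lysyl hydroxylases make the hydroxylysine that carries sugars and gives stable crosslinks. After secretion, the copper-dependent lysyl oxidases oxidize lysine and hydroxylysine so that collagen and elastin molecules join covalently. These enzymes are known for stiffening the matrix of breast tumors, and LOX, P4HA1, P4HA2 and PLOD2 are well known as genes induced under hypoxia.

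Library totals lay between 15289500 and 22981832 counts, and replicates of a group differed by more than counting noise (the chi-square of each pair was 2.36 to 3.27 per degree of freedom). The identity of the cells was checked with markers. All 5 markers listed for a mesenchymal basal-like line (VIM, ZEB1, CDH2, CD44 and EGFR) were expressed. Their summed level lay between 2580 and 2681 CPM (counts scaled to the library total after TMM normalization) in DMSO and between 2031 and 2062 CPM with AS1842856. VIM, CDH2, CD44 and EGFR were called lower, and ZEB1 was called higher with a log2 fold change of 0.50. Of 6 luminal markers, GATA3 and KRT18 passed the filter on low counts, and ESR1 and CDH1 had at most 1 count in any library. These markers moved in opposite directions, since KRT18 fell by 3.30 on the log2 scale and GATA3 rose by 0.28. The luminal sum, which holds both, went from between 82.1 and 87.7 CPM to between 60.4 and 68.7 CPM. The 6 markers of immune, endothelial and smooth muscle cells summed to between 1.64 and 2.60 CPM in DMSO and between 4.31 and 5.04 CPM with AS1842856, with CD3E at 0 counts throughout and PECAM1 at 1 count in all. PTPRC, an immune marker, had 13 to 26 counts in DMSO and 44 to 74 counts with AS1842856. The part of these shifts in the results was not tested. In bulk RNA, fewer cells of a kind and less RNA per cell cannot be told apart.

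The mRNA of every enzyme gene that could be tested was lower with AS1842856. LOX fell most, to 20.4% of its DMSO level, and LOXL1 fell to 43.2%. LOXL2, P4HA3, P4HA1 and PLOD2 fell to between 56.3% and 65.3%, whereas P4HA2 and PLOD1 kept 84.9% and 86.4% of the DMSO level. LOXL3 and LOXL4 had at most 6 counts in any library and were not tested. With edgeR's quasi-likelihood test and a threshold of 0.05 on the adjusted p, 8 of the 8 tested members were lower, where 28.4% of all 14338 genes tested were lower, 27.6% were higher and 56% were called in either direction. In all 8 genes each AS1842856 library was below each DMSO library, which held for 30.3% of all genes tested. The median log2 fold change was -0.77 for the 8 members and 0.0030 for all genes tested. Only LOX and LOXL1 among the 8 fell by 1 log2 unit or more. Of all 14338 genes tested, 908 were called with a fall of that size, and 10.6% with a change of that size in either direction. A median over the 8 does not speak for LOXL3 and LOXL4.

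**Figure D1:**
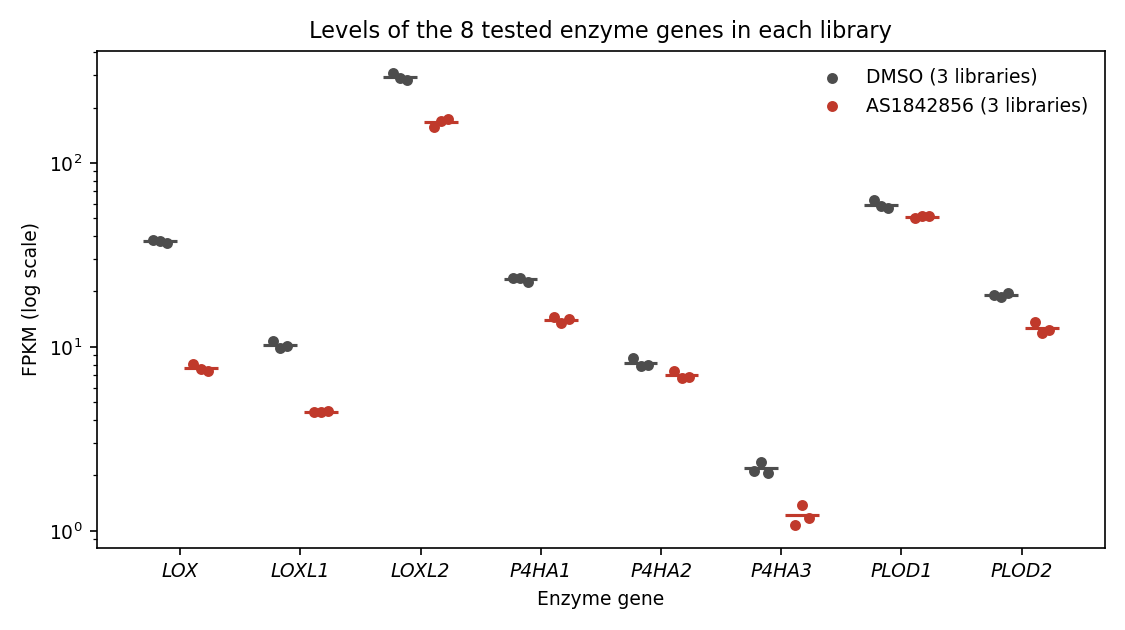
FPKM on a log axis for the 8 tested enzyme genes (x axis), with 1 point per library and a bar at the group mean, DMSO in grey and AS1842856 in red. The groups are apart in every gene, widest in LOX (37.5 against 7.68 FPKM) and narrowest in PLOD1 and P4HA2.

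The lysyl oxidases are described first, with levels as FPKM (fragments scaled to gene length and library total). Comparisons of FPKM between genes depend on the length used, here the merged exons of all transcripts. LOX (ENSG00000113083, GRCh38 chromosome 5 from 122063195 to 122078360, minus strand) encodes the founding lysyl oxidase, a secreted enzyme that acts on fibrillar collagen and elastin. Its level was 38.1, 37.7 and 36.6 FPKM in the DMSO libraries and 8.08, 7.58 and 7.37 FPKM with AS1842856. The lowest DMSO library was thus far above the highest AS1842856 library, and the replicates lay close together. The means were 37.5 ± 0.762 and 7.68 ± 0.368 FPKM (SD, n = 3 per group). LOX had a log2 fold change, with its standard error (SE), of -2.29 (SE 0.05, edgeR adjusted p = 1.39e-128), and only 145 of the 14338 genes tested had a lower one.

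LOXL1 (ENSG00000129038, chromosome 15 from 73925989 to 73952137, plus strand) encodes an enzyme known for its role in elastic fiber upkeep. It had 10.8, 9.84 and 10.1 FPKM in DMSO and 4.42, 4.42 and 4.50 FPKM with AS1842856. The AS1842856 libraries were nearly equal, and all 3 were below the DMSO libraries. Its log2 fold change was -1.21 (SE 0.08, edgeR adjusted p = 2.47e-36), with 637 genes tested having a lower value.

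LOXL2 (ENSG00000134013, chromosome 8 from 23297189 to 23425328, minus strand) encodes a lysyl oxidase that acts on basement membrane collagen IV and is associated with invasion in basal-like breast cancer. LOXL2 was by far the most abundant of the 10 genes, with 307, 289 and 281 FPKM in DMSO and 157, 169 and 172 FPKM with AS1842856. Its DMSO mean of 292 ± 13.3 FPKM was above that of 99.4% of the genes tested, and the AS1842856 mean was 166 ± 7.75 FPKM (SD, n = 3 per group). The log2 fold change was -0.81 (SE 0.03, edgeR adjusted p = 4.93e-62), a smaller relative fall than that of LOX but a larger one in FPKM.

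LOXL3 (ENSG00000115318, chromosome 2 from 74532414 to 74555690) and LOXL4 (ENSG00000138131, chromosome 10 from 98247690 to 98268250) encode the remaining lysyl oxidases. LOXL3 had 6, 4 and 0 counts in DMSO and 2, 2 and 6 counts with AS1842856. LOXL4 had 5, 4 and 0 counts in DMSO and 0, 4 and 3 counts with AS1842856. Both lay at or near the limit that a count of 0 allows (3 counts, between 0.131 and 0.196 CPM depending on the library), the groups overlapped, and no fold was computed. A fall in these genes was not detectable at this depth, and no large rise was seen.

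The catalytic subunits of prolyl 4-hydroxylase fell less evenly. P4HA1 (ENSG00000122884, chromosome 10 from 73007217 to 73096974, minus strand), the widely expressed alpha subunit, had 23.7, 23.5 and 22.6 FPKM in DMSO and 14.5, 13.5 and 14.2 FPKM with AS1842856. The groups were well apart, with a log2 fold change of -0.73 (SE 0.06, edgeR adjusted p = 1.92e-29). P4HA2 (ENSG00000072682, chromosome 5 from 132191838 to 132295315, minus strand), which forms a separate form of the enzyme, had 8.74, 7.86 and 8.01 FPKM in DMSO and 7.36, 6.77 and 6.85 FPKM with AS1842856. Its highest AS1842856 library lay just below its lowest DMSO library. The log2 fold change was -0.24 (SE 0.05, edgeR adjusted p = 3.65e-05), and 4020 genes tested had a lower one.

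P4HA3 (ENSG00000149380, chromosome 11 from 74235801 to 74311657, minus strand), the least abundant tested member, had 2.13, 2.37 and 2.07 FPKM in DMSO and 1.07, 1.39 and 1.18 FPKM with AS1842856. These levels rest on 147 to 188 counts per DMSO library and 72 to 128 counts per AS1842856 library. The replicates were more spread than those of the other members, but the groups did not overlap. The log2 fold change was -0.83 (SE 0.14, edgeR adjusted p = 8.93e-08), and it was -0.53 on the log2(FPKM + 1) scale, which understates the change of low genes.

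PLOD1 (ENSG00000083444, chromosome 1 from 11934205 to 11975538, plus strand) encodes the lysyl hydroxylase that acts mainly on the helical part of collagen. It had 62.5, 57.9 and 56.8 FPKM in DMSO and 50.3, 51.7 and 51.2 FPKM with AS1842856. The fall was small and the groups were close, with a log2 fold change of -0.21 (SE 0.04, edgeR adjusted p = 7.93e-08). PLOD2 (ENSG00000152952, chromosome 3 from 146069440 to 146163653, minus strand) encodes the lysyl hydroxylase of the telopeptides, the chain ends where stable crosslinks start. PLOD2 had 19.2, 18.8 and 19.7 FPKM in DMSO and 13.6, 11.9 and 12.3 FPKM with AS1842856. Here the groups were well apart, and the log2 fold change was -0.61 (SE 0.04, edgeR adjusted p = 5.64e-33).

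Some members share exon bases with neighboring genes, and it is not stated whether counting used strand. SRFBP1, on the opposite strand, shares 138 exon bases with LOX and held 21.3% as many counts, with a log2 fold change of 0.12 (SE 0.08, edgeR adjusted p = 0.205). LOXL1-AS1, an antisense gene, shares 335 exon bases with LOXL1, held 14.4% as many counts and fell by 1.36 on the log2 scale. ENTPD4, on the same strand, shares 120 exon bases with LOXL2, held 12.2% as many counts and rose by 0.77 on the log2 scale. PPME1, opposite to P4HA3, had 8520 counts over the 6 libraries against 775 for P4HA3, shares 166 exon bases with it and rose by 0.22. HTRA2, opposite to LOXL3, had 1719 counts against 20. How far such neighbors add to the counts of P4HA3 and LOXL3 was not tested.

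Promoter sequences of the members were searched for short stretches of letters as a description, and no cause of the fall was tested. RefSeq windows of 300 bases (GRCh38.p14, from 250 bases before to 50 after a transcript start) were matched by symbol for 8 of the 10 genes. LOXL2 and P4HA3, which fell, had no entry, and the 8 include LOXL3 and LOXL4, whose expression was not tested. The core of the hypoxia response element is the letters ACGTG, which on the other strand read CACGT, the forms sharing bases where they adjoin. It occurred in windows of 3 of the 8 genes, LOX, P4HA1 and PLOD2, and in 21.4% of all 35116 windows (24.9% of the 27305 genes). P4HA2 had no core in its only window (chr5:132227042-132227341). That window lies inside the gene as annotated (132191838 to 132295315), and other starts of P4HA2 were not searched. LOX held 4 such cores upstream of its main start, beginning 185, 116, 98 and 42 bases before it. PLOD2 held 2, beginning 200 and 146 bases before its start, and P4HA1 held 1, beginning 86 bases before its start. The forkhead site GTAAACA, a core that FOXO proteins are known to bind, was searched on both strands (as TGTTTAC on the other one), and it occurred in 0 of the 8 genes' windows and in 3.42% of all windows (4.19% of genes). A match is only a match of letters, and these windows are short. The 250 bases before the start are printed 5′ to 3′ on the gene's strand, with the hypoxia cores in capitals, for LOX (chr5:122078260-122078509), P4HA1 (chr10:73096867-73097116) and PLOD2 (chr3:146161185-146161434).
LOX: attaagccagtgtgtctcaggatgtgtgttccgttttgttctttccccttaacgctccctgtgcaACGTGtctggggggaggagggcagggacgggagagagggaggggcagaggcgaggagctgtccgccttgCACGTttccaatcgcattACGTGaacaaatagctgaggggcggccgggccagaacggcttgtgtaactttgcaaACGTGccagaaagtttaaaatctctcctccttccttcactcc
P4HA1: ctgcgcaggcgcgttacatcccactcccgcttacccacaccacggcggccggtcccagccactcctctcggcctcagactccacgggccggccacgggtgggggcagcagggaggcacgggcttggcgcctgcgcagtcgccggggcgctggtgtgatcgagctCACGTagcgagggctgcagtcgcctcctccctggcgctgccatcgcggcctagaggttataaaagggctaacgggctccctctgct
PLOD2: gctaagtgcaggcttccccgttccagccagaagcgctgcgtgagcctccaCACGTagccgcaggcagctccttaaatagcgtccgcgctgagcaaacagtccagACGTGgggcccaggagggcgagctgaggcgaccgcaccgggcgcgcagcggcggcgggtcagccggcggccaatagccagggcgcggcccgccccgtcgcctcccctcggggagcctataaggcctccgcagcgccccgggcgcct

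Because the members fell unequally, the make-up of each family differed between the groups. The summed level of the lysyl oxidases was 356, 337 and 328 FPKM in DMSO and 170, 181 and 184 FPKM with AS1842856, 52.4% of the DMSO mean. The alpha subunits summed to 33.7 ± 0.962 and 22.3 ± 0.632 FPKM (SD, n = 3 per group), 66.1% of the DMSO mean. PLOD1 and PLOD2 together, without the lysyl hydroxylase PLOD3, went from 78.3 ± 2.96 to 63.7 ± 0.125 FPKM, 81.3% of the DMSO mean. The groups did not overlap in any of the 3 sums.

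LOXL2 made up 85.9 ± 0.262% of the lysyl oxidase FPKM in DMSO, against 93.1 ± 0.458% after AS1842856 (SD, n = 3 per group). LOX held 10.7, 11.2 and 11.2% of the family in DMSO and 4.756, 4.194 and 3.997% with AS1842856, and LOXL1 went from 3.02 ± 0.0878% to 2.49 ± 0.0898%. Among the alpha subunits, P4HA1 went from 69.2 ± 0.553% to 63.1 ± 0.741% and P4HA2 from 24.4 ± 0.997% to 31.4 ± 0.635%. The share of P4HA3 overlapped between the groups, with 6.50 ± 0.457% and 5.47 ± 0.878%. PLOD1 held 75.4 ± 1.13% of the FPKM of PLOD1 and PLOD2 in DMSO and 80.2 ± 1.32% with AS1842856. All shares but those of P4HA3, LOXL3 and LOXL4 were apart between the groups. FPKM divides by the merged exons of all transcripts of a gene, so a share depends on that length. P4HA1 and P4HA2 had close mean CPM in DMSO (72.4 and 70.1), with merged exons of 3093 and 8502 bases. The change of LOXL1 was -0.52 percentage points from FPKM and -0.35 from CPM.

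**Figure D2:**
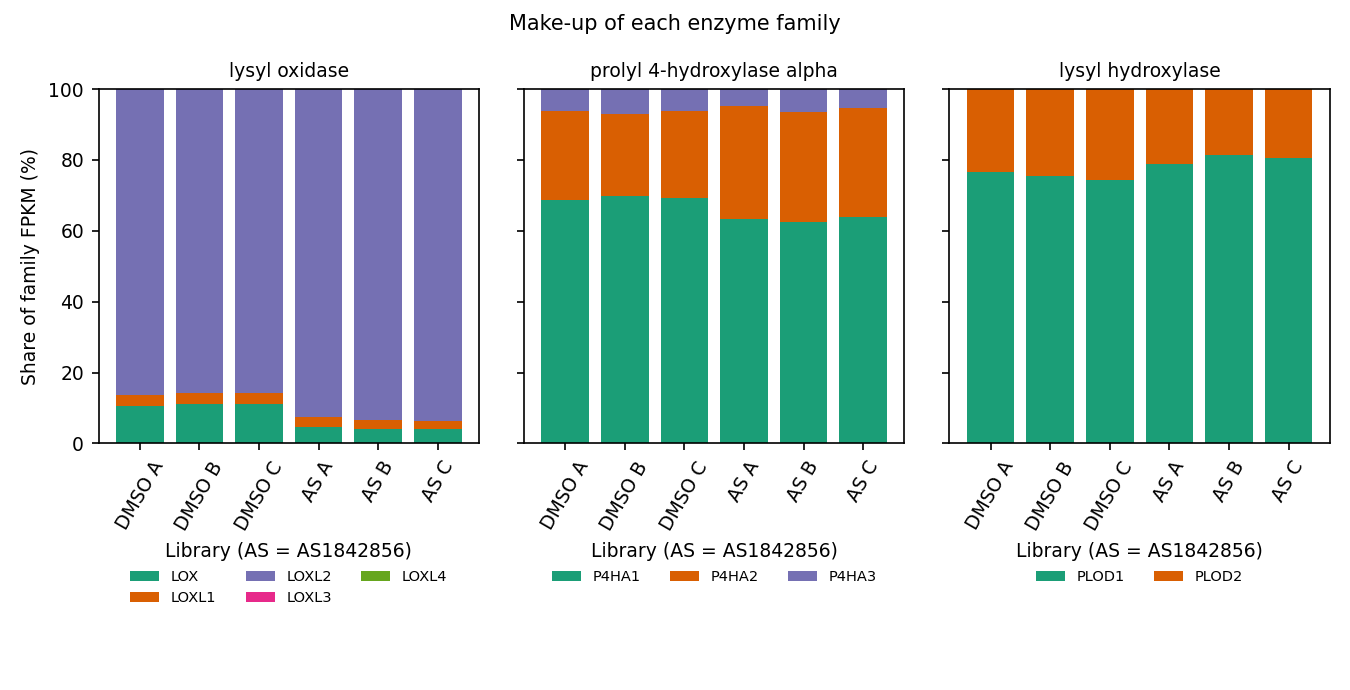
Stacked bars of the share of family FPKM (%, from 0 to 100) taken by each member in each of the 6 libraries, with 1 panel per enzyme family. LOXL2 goes from 85.9% to 93.1% of the lysyl oxidases, P4HA2 from 24.4% to 31.4% of the alpha subunits and PLOD1 from 75.4% to 80.2% of the lysyl hydroxylase pair.

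To ask whether pairs of genes changed unequally, the log2 ratio of FPKM was computed per library for 6 pairs. LOX to LOXL2 was -3.01, -2.94 and -2.94 in DMSO and -4.28, -4.48 and -4.55 with AS1842856, a difference of -1.47. LOXL1 to LOXL2 differed by -0.39, P4HA1 to P4HA2 by -0.50 and PLOD1 to PLOD2 by 0.40. Set against genes outside the 10, P4HA1 to P4HB differed by -0.82 and PLOD2 to PLOD3 by -0.72. In all 6 pairs the groups did not overlap. Each exact two-sided permutation test gave p = 0.10 (0.10 after Benjamini-Hochberg adjustment over the 6), the smallest that 3 against 3 allows, so this test could not pass 0.05 for any of them. No model of the ratios was fitted.

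**Figure D3:**
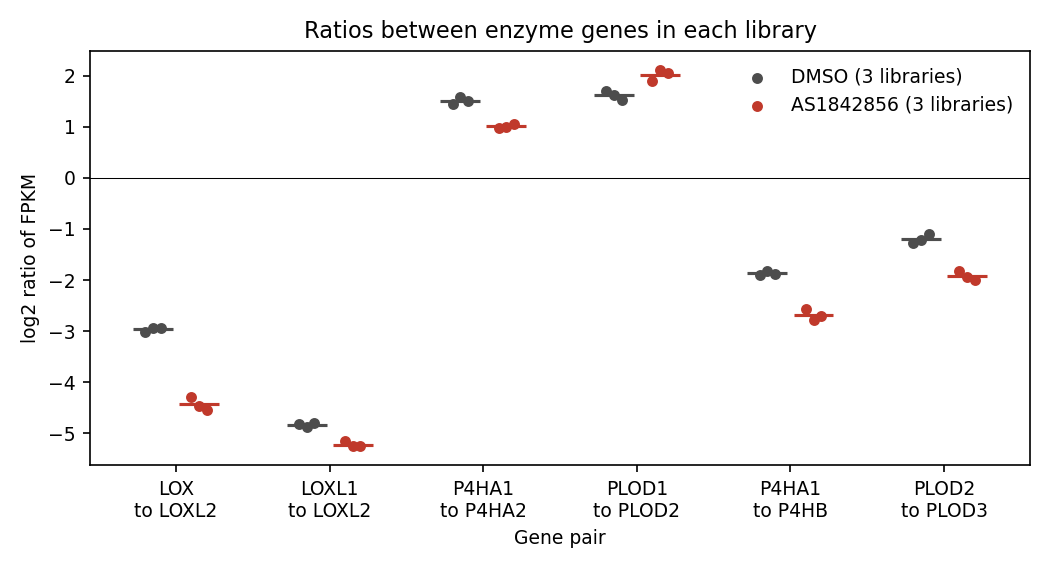
The log2 ratio of FPKM for 6 gene pairs, with 1 point per library and a bar at the group mean, DMSO in grey and AS1842856 in red. Each pair is apart between the groups, from a difference of -1.47 (LOX to LOXL2) to 0.40 (PLOD1 to PLOD2).

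P4HB and PLOD3, the closest partners of these enzymes, did not fall. P4HB, protein disulfide isomerase, is the beta subunit shared by the prolyl 4-hydroxylases, and its log2 fold change was 0.09 (SE 0.03, edgeR adjusted p = 0.0139), from 85.1 ± 3.41 to 90.9 ± 4.01 FPKM (SD, n = 3 per group). PLOD3 hydroxylates lysine and also helps add the sugars of hydroxylysine. Its log2 fold change was 0.11 (SE 0.04, edgeR adjusted p = 0.00961), from 44.3 ± 2.11 to 47.7 ± 1.69 FPKM. The groups overlapped in both. Both calls depended on the processing, and P4HB lost its call in 8 of 15 alternatives and PLOD3 in 6 of 15. P4HB was not called without DMSO replicate B, DMSO replicate C, AS1842856 replicate B or AS1842856 replicate C (edgeR adjusted p between 0.0820 and 0.133), and PLOD3 was not called without DMSO replicate C or AS1842856 replicate C (0.153 and 0.10). With no filter, the edgeR adjusted p was 0.0791 for P4HB and 0.0589 for PLOD3, and in the 3 limma fits on FPKM it lay between 0.107 and 0.189 for P4HB and between 0.0761 and 0.146 for PLOD3. Without DMSO replicate C, the log2 fold change of PLOD3 was 0.07. The P4HA1 level was 0.274 times that of P4HB in DMSO and 0.155 times with AS1842856 (geometric means of the FPKM ratio).

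The wider set of collagen processing partners did not move one way. Of 23 partner genes (other hydroxylases, glycosyltransferases, chaperones, export factors and propeptide-cleaving enzymes), 22 were tested, 9 were lower and 11 higher, with a median log2 fold change of 0.10, where 28.4% and 27.6% of all genes were called in those directions. PPIB and PCOLCE were not called, and TLL2 had at most 8 counts and was not tested. Of the P3H genes, named after their values were seen, P3H1, P3H3 and P3H4 were called lower. Their log2 fold changes were -0.29, -0.47 and -0.21, whereas P3H2 was called higher, at 0.18. Changes of 1 log2 unit or more were in enzymes that trim procollagen and in a galactosyltransferase. ADAMTS2 and ADAMTS3, which remove the amino-terminal propeptide, had log2 fold changes of -2.42 and -1.19, whereas ADAMTS14, of the same enzyme group, rose by 4.14, from 0.868 ± 0.158 to 15.1 ± 0.537 FPKM (SE 0.08, edgeR adjusted p = 1.73e-126). TLL1, a tolloid-like protease, rose by 3.67 on the log2 scale from 8, 7 and 9 counts in DMSO to 88, 124 and 107 counts. COLGALT2, which adds galactose to hydroxylysine, rose by 1.58, while COLGALT1, named after its values were seen, had a log2 fold change of -0.21. On the log2(FPKM + 1) scale, the log2 fold change was -1.04 for ADAMTS2, -0.60 for ADAMTS3 and 0.71 for TLL1, all of them low genes.

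Genes of copper and ascorbate supply and of the matrix around the lysyl oxidases were divided. Of 14 genes, 11 were tested, 6 were lower and 5 higher, where 28.4% and 27.6% of all genes were called in those directions. The 6 lower genes were matrix or crosslinking genes and SLC2A1, which imports glucose and oxidized ascorbate. TGM2, a transglutaminase that crosslinks matrix proteins by another reaction, had a log2 fold change of -1.65 and fell from 21.4 ± 0.222 to 6.79 ± 0.0603 FPKM. EFEMP2, which helps present LOX to elastin, had a log2 fold change of -1.08, POSTN, a matrix protein that aids LOX activation, -1.10, SLC2A1 -1.04 and FBN1 (fibrillin, named after its values were seen) -0.92. ELN, the elastin substrate, had 29, 14 and 24 counts in DMSO and 2, 3 and 4 counts with AS1842856, so its log2 fold change of -2.87 (SE 0.52) is uncertain in size, and it was -0.20 on the log2(FPKM + 1) scale. FN1, fibronectin, rose by 1.13. The copper genes ATP7A, ATOX1 and SLC31A1, named after their values were seen, had log2 fold changes of 0.40, 0.69 and 0.28, and all 3 were called as higher. ATP7A was at 0.27 without AS1842856 replicate B and at 0.24 on the log2(FPKM + 1) scale, where it was not called with no filter (limma adjusted p = 0.0755). PGK1, on the same strand, shares 97 exon bases with ATP7A and had 75376 counts against 2122. G3BP1, on the opposite strand, shares 130 exon bases with ATOX1 and had 58856 counts against 7605. How far these neighbors add to the counts of ATP7A and ATOX1 was not tested. FBLN5, FMOD and SLC23A1 were not tested.

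Among 15 collagen chain genes, substrates of these enzymes, 10 were tested, of which 7 fell and 1 rose (28.4% and 27.6% of all genes did so), and their median log2 fold change was -0.65. COL1A2 fell by 2.20 on the log2 scale, COL5A2 by 1.42 and COL3A1 by 1.29, while COL5A1, named after its values were seen, rose by 0.31. COL2A1, COL5A3, COL11A1, COL4A3 and COL4A4 were not tested.

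**Figure D4:**
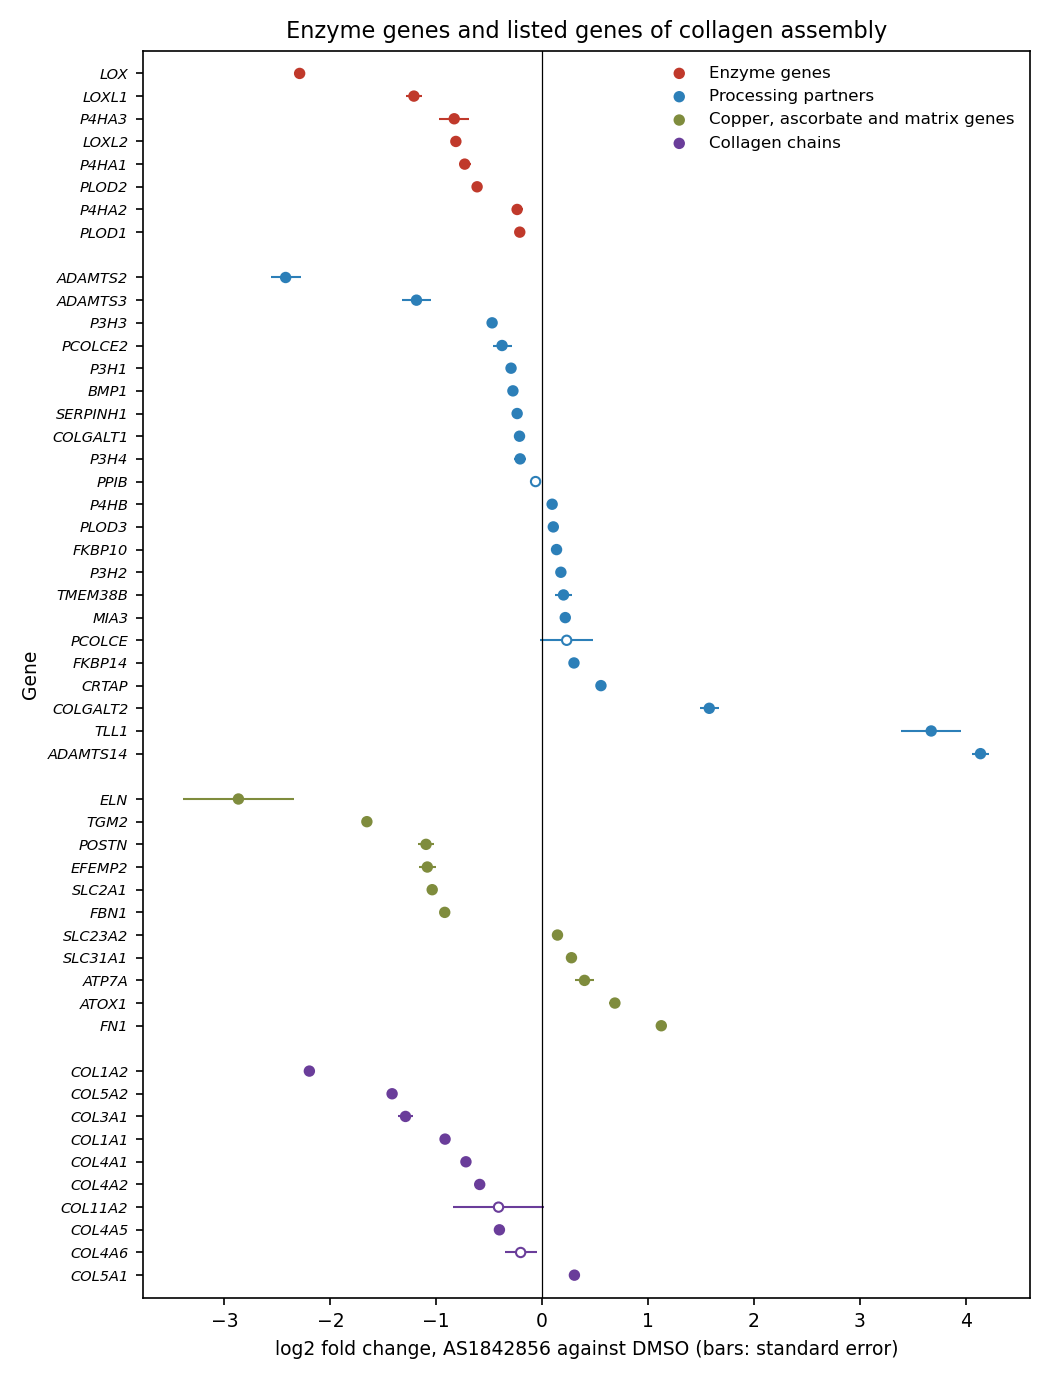
The log2 fold change of AS1842856 against DMSO (x axis, bars are standard errors) for the tested enzyme genes and the genes of the 3 other lists (y axis), filled where edgeR's adjusted p passed 0.05. The 8 enzyme genes lie left of 0, from -2.29 to -0.21, while the partner genes lie on both sides, from -2.42 to 4.14.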

How the data were processed

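RNA-Seq counts per gene, without normalization, were deposited by the authors for 6 libraries. The paper names STAR for the mapping. FPKM values for each library were also deposited by the authors, and for the 10 genes they lay between 0.988 and 1.00 times the counts per kilobase of merged exons scaled to the library total. The submitters' processing notes name CASAVA, Bowtie 0.12.2 and GRCh38 but not STAR, and which mapping tool was used was not resolved. The counting tool, its strand setting and the annotation are not given in the sources used here. All 58735 identifiers matched GENCODE release 29 (Ensembl 94, GRCh38), which gave symbols and positions.

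The main test was edgeR 4.0.16 (R 4.3.3) on the counts, without a block. Low genes were removed with filterByExpr (minimum count 10, minimum total 15), TMM factors were applied, and robust glmQLFit was followed by glmQLFTest. Benjamini-Hochberg adjustment covered all genes tested, with a threshold of 0.05. The standard error was the log2 fold change divided by the square root of F. The common biological coefficient of variation was 0.0374. Limits from counts cover counting error only. On simulated counts for this comparison edgeR recovered 94.9% of genes changed 2-fold among 14314 tested, with 4.48% of calls false. The simulation held 200 changed genes, 2-fold or 4-fold in either direction, and the same dispersion for all genes. Changes under 2-fold, as in most members, and a table with as many changed genes as here were not simulated. These rates thus do not speak for such calls.

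The paper calls the libraries biological replicates. The genes and lists were chosen with earlier results of these data known, so no list was tested as a set. Beyond the 10 genes, P4HB, PLOD3 and genes of each list called with a log2 fold change of at least 1 in size were named, at most 6 per list. Alternatives were DESeq2 1.42.0, other scalings and filters, limma 3.58.1 on FPKM, a replicate block and each library left out. Protein sequences were not used here. Sums and ratios were computed in Python 3.11.15.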

Additional observations from a re-analysis of the deposited data

How the results depend on the processing

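All 8 tested enzyme genes were called as lower under each of 15 alternatives, so 120 of 120 values of single members kept their direction and call. Their largest adjusted p was 0.0324 (P4HA2). When single libraries were left out, log2 fold changes ran from -2.33 to -2.27 for LOX, from -0.27 to -0.19 for P4HA2 and from -0.24 to -0.17 for PLOD1. The number of genes called over the whole table was 8029, from 7427 to 7678 with a library left out and from 6453 to 8030 otherwise. With the replicate letter as a replicate block, 7862 genes and the same number of members, 8, were called. The labels do not say whether the letters pair the libraries. Deviations from the group means correlated across genes with r of -0.0157, 0.00746 and -0.0416 for A, B and C. For libraries with unlike letters r lay between -0.0171 and 0.0345. With 3 libraries per group such values do not exclude a pairing. The block changed no call among the listed genes.

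Of the other 43 tested genes, 29 of the 636 values with an adjusted p lost their call and none turned direction. These values include PPIB, PCOLCE, COL11A2 and COL4A6, which had no call to lose. Alternatives that gave a gene no adjusted p are not counted, so ELN had 12 and TLL1 13 of 15 values. The 29 lost calls belong to P4HB, PLOD3, P3H4, TMEM38B, ATP7A and SLC23A2, whose changes were small. TMEM38B was lost in 7 and SLC23A2 in 6 of 15 alternatives, for both including DESeq2 (adjusted p of 0.123 and 0.0844), no filter (0.0566 and 0.0706) and limma on log2(FPKM + 1) with no filter (0.151 and 0.0809), and TMEM38B also in the other 2 limma fits. Among left-out libraries, TMEM38B was lost without DMSO replicate A (log2 fold change 0.12) or AS1842856 replicate B, and SLC23A2 without DMSO replicate C, AS1842856 replicate B or AS1842856 replicate C. The number of partner genes called higher was 7 in place of 11 with limma on log2(FPKM + 1) and also on log2(FPKM + 0.1), and that of copper, ascorbate and matrix genes 3 in place of 5 with limma on log2(FPKM + 1) with no filter. Summed from TMM-scaled CPM in place of FPKM, the alpha subunits were at 71.6% of DMSO, which gives long P4HA2 more weight. In the same unit the share changes were -0.35 percentage points for LOXL1, -7.52 for P4HA1 and 8.82 for P4HA2. Other scalings moved the median log2 fold change by between -0.0039 and 0.0025. Depth limits LOXL3 and LOXL4, and the exact permutation test of a ratio could not go below 0.10, or 0.25 with the block.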
